A study of Mus musculus with 10 samples.

Results

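Hspa5, Pdia4, Sdf2l1, Herpud1, Xbp1, Atf4, Atf3 and Ddit3 are 8 genes of the unfolded protein response, taken by name from the deposited mouse expression tables of imiquimod-treated ear skin. They were analysed among 10694 genes that appear in either of 2 tables. Of the 8 genes, 6 appear in both tables, while Atf3 was analysed only beside the untreated libraries and Ddit3 only beside the benzamil libraries. A filter on low read numbers left 5 of them (Hspa5, Pdia4, Herpud1, Xbp1 and Atf4) among the 5245 genes tested.

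The unfolded protein response is the reaction of a cell to unfolded protein in the endoplasmic reticulum (ER). The sensors IRE1, PERK and ATF6 sit in the ER membrane and are held inactive by the chaperone BiP, the product of Hspa5. IRE1 splices Xbp1 mRNA so that it encodes an active transcription factor, ATF6 is cut to release one, and PERK phosphorylates eIF2alpha, which lowers protein synthesis while favouring translation of Atf4 mRNA. XBP1 and ATF6 raise transcription of chaperones and degradation factors, and ATF4 that of amino acid genes, Atf3 and Ddit3. In skin, keratinocytes that differentiate engage parts of this response. Read numbers per gene report neither Xbp1 splicing, nor Atf4 translation, nor the cleavage of ATF6.

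All libraries came from c57/Bl6 mice aged 6 to 8 weeks. The titles of the untreated libraries carry the letters WT, and otherwise no genotype beyond the strain is given. The DMSO group (n = 4) was treated topically for 6 days with the solvent DMSO and imiquimod, which activates Toll-like receptor signalling and inflames mouse skin in a way that resembles psoriasis. The benzamil group (n = 4) had benzamil, a blocker of epithelial sodium channels related to amiloride, in addition to imiquimod, so both treated groups carry imiquimod. The third group (n = 2) was untreated. The sample labels give ear skin throughout, whereas the design text of the series names back skin where it describes untreated controls, so body site and treatment cannot be told apart in comparisons with that group. No source used here says that the libraries of a group came from separate animals, so p-values measure the spread between libraries, which may be technical.

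Promoter sequences of Hspa5 and Herpud1 are shown because these were the genes of the 8 that passed the test between benzamil and DMSO, and because both carry a form of the ER stress element, the motif bound by ATF6 with the factor NF-Y. RefSeq windows of 300 bases, from 250 bases before to 50 after the transcription start, were read on GRCm38.p6 (the mm10 build). The window of Hspa5 is chr2:34771840-34772139 on the plus strand and that of Herpud1 chr8:94386179-94386478 on the plus strand. Capitals mark the ER stress element in Hspa5 and its second form in Herpud1.
Hspa5: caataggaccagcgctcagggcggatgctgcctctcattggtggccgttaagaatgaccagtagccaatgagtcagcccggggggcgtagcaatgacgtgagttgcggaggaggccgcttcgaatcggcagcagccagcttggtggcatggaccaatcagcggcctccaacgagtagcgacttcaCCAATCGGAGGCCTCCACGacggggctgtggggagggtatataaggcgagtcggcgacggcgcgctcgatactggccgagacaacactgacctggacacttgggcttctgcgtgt
Herpud1: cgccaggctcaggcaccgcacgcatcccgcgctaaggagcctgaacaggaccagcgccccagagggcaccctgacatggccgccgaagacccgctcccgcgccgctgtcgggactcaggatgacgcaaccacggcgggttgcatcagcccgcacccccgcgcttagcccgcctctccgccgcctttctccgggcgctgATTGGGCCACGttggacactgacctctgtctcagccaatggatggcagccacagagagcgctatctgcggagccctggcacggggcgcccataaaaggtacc

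Windows were found for all 8 genes and searched on both strands. The ER stress element, spelled CCAAT, a gap of 9 bases and CCACG, was found in Hspa5 alone of the 8, at positions -65 to -47 from the start as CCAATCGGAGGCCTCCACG. It was present in 39 of 32851 mouse promoter windows (0.119%). Its second form, ATTGG, a gap of 1 base and CCACG, was found in Herpud1 at -52 to -42 as ATTGGGCCACG and in 0.0365% of all windows. The unfolded protein response element TGACGTG, a motif of XBP1 and ATF6, was found in Hspa5 at -157 to -151 and in 2.01% of windows. The amino acid response element of ATF4, TGATG, a gap of 1 base and AA, was found on the minus strand in Herpud1 at -112 to -105 and in Atf3 at -110 to -103, and in 3.97% of windows. The short site CCACG, which is also contained in both forms of the stress element, occurs in 32.8% of windows and was found in Hspa5, Pdia4, Sdf2l1, Herpud1 and Atf4. The windows of Xbp1 and Ddit3 held none of these letters. The plot of motif positions shows these matches, which are descriptions of sequence and not of binding.

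**Figure D1:**
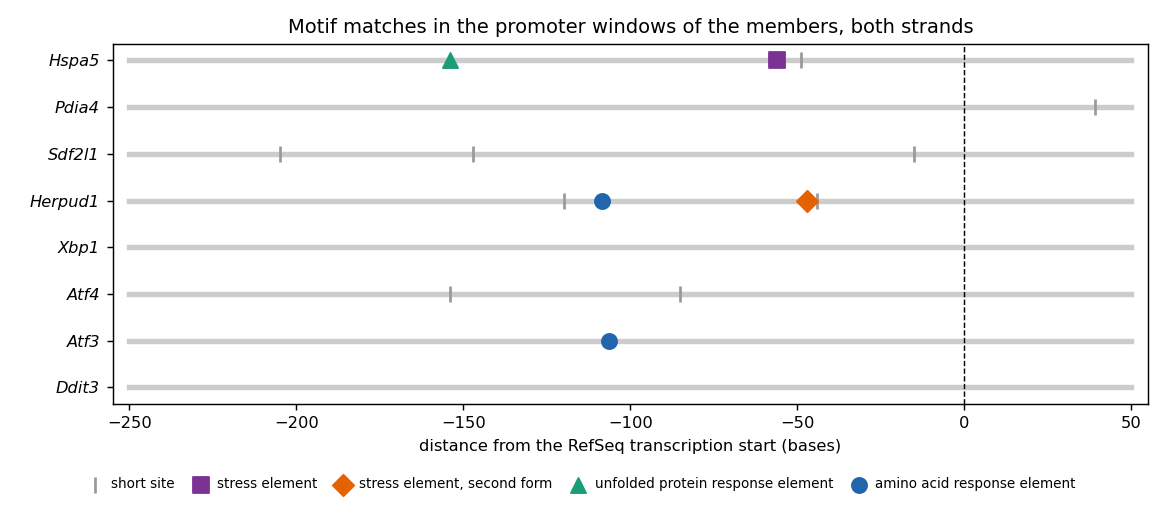
Motif matches in the promoter windows of the 8 genes, with distance from the RefSeq transcription start in bases on the x axis and 1 line per gene. Of the 8, Hspa5 and Herpud1 carry a form of the ER stress element, at -65 to -47 and at -52 to -42.

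Sequencing depth limited the lowly expressed genes. The deposited tables held 260207 to 938322 reads per DMSO library, 139204 to 377240 per benzamil library, and 74713 and 71230 in the untreated libraries. Levels are given in CPM, read counts scaled for library size by the trimmed mean of M-values, and the worth of 1 read ran from 1.04 CPM (DMSO library 1) to 14.8 CPM (untreated library 2). Ribosomal RNA rows took 22.1 to 28.8% of reads with DMSO, 31.0 to 45.7% with benzamil, and 34.2 and 38.6% in untreated skin. Of 9 keratinocyte markers, all 9 had reads in every group, and their summed level was 37839 to 52410 CPM with DMSO, 58286 to 74517 with benzamil, and 25008 and 28758 in untreated skin. In benzamil over DMSO, 3 of the 9 were called higher and 0 lower, and the sum mixes unlike genes. Krt2 had 10147, 1741, 3062 and 2708 reads in DMSO libraries 1 to 4, and 8671, 4568, 4396 and 4491 with benzamil. Krt5 had 4551, 1972, 1065 and 1605, and 1175, 1094, 486 and 309. These are read numbers not scaled for depth, so they do not by themselves show a change in level. In DMSO libraries 1 to 4, 1 read was worth 1.04, 2.70, 3.68 and 2.78 CPM. In benzamil libraries 1 to 4 it was worth 3.03, 3.34, 6.67 and 7.94 CPM. The sum of 10 of 10 skeletal muscle markers was 178 to 1177 CPM with DMSO, 691 to 1565 with benzamil, and 2877 and 3015 untreated, and that of 9 of 10 sebaceous gland markers was 2906 to 4334, 5450 to 9268, and 6377 and 9462. Fibroblast and matrix markers (9 of 10) summed to 561 to 1115, 734 to 2279, and 8424 and 19355 CPM. Of 9 neutrophil markers, 2 were analysed, at 33.1 to 98.7 CPM with DMSO, 6.67 to 20.0 with benzamil and 0 in untreated skin. B and plasma cells are rich in ER, but of 9 markers of them Sdc1 alone was analysed. Its level was 257 to 340 CPM with DMSO, 194 to 247 with benzamil, and 121 and 163 in untreated skin. Sdc1 was called higher in DMSO over untreated. Jchain, Mzb1, Ighm, Igha, Igkc, Iglc2, Cd79a and Tnfrsf17 were not among the genes in both tables. Sdc1 by itself therefore does not show whether these cells differed between groups. The part of cell composition in the results that follow was not tested, and fewer cells of a type cannot be told apart from less RNA per cell in bulk skin.

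Hspa5 and Herpud1 fell with benzamil relative to DMSO, each by about the same log2 amount, and Hspa5 was higher in DMSO-treated than in untreated skin. Pdia4 and Xbp1 had fold changes of the same size and sign as Hspa5 with benzamil but did not pass the adjusted threshold. Atf4 did not differ in level between DMSO and benzamil beyond the spread of the libraries. The remaining genes, Sdf2l1, Atf3 and Ddit3, had at most 12 reads in any library. The plot of levels in each library shows all 8.

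**Figure D2:**
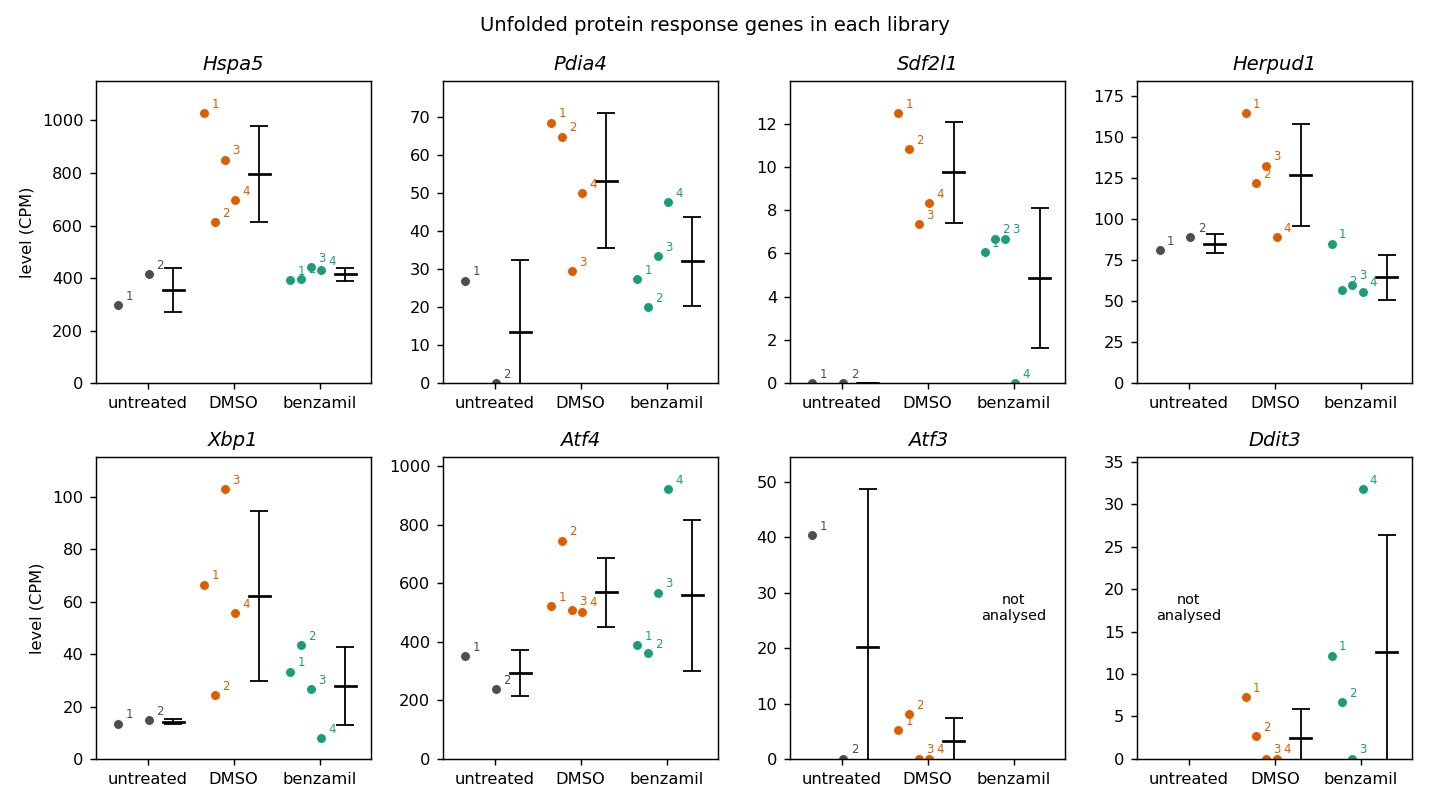
Level of each of the 8 genes in CPM (y axis, separate scale per gene) in untreated, DMSO and benzamil libraries; points are libraries with their replicate number, and the bar to their right is the mean ± SD. The 4 benzamil libraries lie below all 4 DMSO libraries for Hspa5 and Herpud1, while for Atf4 the groups overlap; error bars that reach below 0 are cut at the axis.

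Hspa5 (ENSMUSG00000026864.14, mm10 chr2:34771970-34777547, plus strand) encodes BiP, the main HSP70 chaperone of the ER. Its reads numbered 988, 227, 231 and 251 in DMSO libraries 1 to 4, or 1027, 613, 850 and 697 CPM. In benzamil libraries 1 to 4 there were 129, 119, 66 and 54 reads, or 391, 397, 440 and 429 CPM. The untreated libraries had 22 and 28 reads, or 296 and 415 CPM. All DMSO libraries were above all benzamil and untreated libraries, and the benzamil and untreated ranges overlapped. The group means were 797 ± 182 CPM with DMSO (SD, n = 4), 414 ± 23.9 with benzamil (SD, n = 4) and 356 ± 84.3 untreated (SD, n = 2). In the quasi-likelihood test of edgeR, with p-values adjusted by Benjamini-Hochberg over all genes tested, Hspa5 was 1.94-fold lower with benzamil than with DMSO (log2 fold change -0.95 ± 0.20 SE, adjusted p = 0.00118). The level with DMSO was 2.25-fold that of untreated skin (log2 1.17 ± 0.29 SE, adjusted p = 0.00615). Without untreated library 1 this second value was 1.04, with an adjusted p of 0.0821. The 4 benzamil libraries varied by a coefficient of variation of 5.76%, which is less than the counting error of any of them (8.80 to 13.6%), whereas the DMSO libraries varied by 22.8%, beyond their counting error of 3.18 to 6.64%.

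Pdia4 (ENSMUSG00000025823.10, mm10 chr6:47796141-47813430, minus strand) encodes an ER protein disulfide isomerase, an enzyme that forms and rearranges disulfide bonds. It had 66, 24, 8 and 18 reads in the DMSO libraries (68.6, 64.8, 29.4 and 49.97 CPM) and 9, 6, 5 and 6 in the benzamil libraries (27.3, 20.0, 33.4 and 47.7 CPM). The untreated libraries had 2 and 0 reads. The DMSO and benzamil groups overlapped, since DMSO library 3 was below benzamil libraries 3 and 4. The log2 fold change with benzamil was -0.94 ± 0.37 SE (adjusted p = 0.0732), with means of 53.2 ± 17.8 and 32.1 ± 11.7 CPM (SD, n = 4 each). Summed over the libraries of a group, the DMSO level was 4.18 times the untreated level, with a 95% counting interval of 1.13 to 35.0, and the edgeR adjusted p of that difference was 0.121.

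Sdf2l1 (mm10 chr16:17130138-17132383, minus strand) encodes a small ER protein that works with BiP and its cochaperones. It had 12, 4, 2 and 3 reads in the DMSO libraries and 2, 2, 1 and 0 in the benzamil libraries. No read was found in the untreated libraries, where a floor of 3 reads over the group is 21.2 CPM, above the summed DMSO level of 10.7 CPM, so the read numbers set no fold against untreated skin. limma on the log2 values called this difference (0.88, adjusted p = 0.0111), while edgeR without the filter did not (adjusted p = 0.274). The summed benzamil level was 0.517 times that of DMSO, with a counting interval of 0.152 to 1.41 that includes no change. Without the filter, in the table of benzamil and DMSO alone, the log2 fold change was -0.92 ± 0.72 SE (edgeR adjusted p = 0.439).

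Herpud1 (ENSMUSG00000031770.17, mm10 chr8:94386438-94395377, plus strand) encodes an ER membrane protein of the degradation machinery that removes misfolded proteins. It had 158, 45, 36 and 32 reads with DMSO (164, 122, 132 and 88.8 CPM) and 28, 17, 9 and 7 with benzamil (84.9, 56.8, 60.0 and 55.6 CPM). The untreated libraries had 6 reads each (80.8 and 89.0 CPM). The DMSO and benzamil groups did not overlap, although DMSO library 4 and benzamil library 1 came close. Both untreated libraries lay above benzamil libraries 2, 3 and 4. Herpud1 was 1.94-fold lower with benzamil than with DMSO (log2 -0.96 ± 0.26 SE, edgeR adjusted p = 0.0104). The means were 127 ± 31.1 and 64.3 ± 13.9 CPM (SD, n = 4 each). The call was lost without DMSO library 1 (-0.77, adjusted p = 0.0711) and without benzamil libraries 3 and 4 together (-0.82, adjusted p = 0.0917). Against untreated skin, at 84.9 ± 5.82 CPM (SD, n = 2), the DMSO value was 0.61 ± 0.44 SE on the log2 scale (adjusted p = 0.351), with an interval from -0.26 to 1.48.

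Xbp1 (ENSMUSG00000020484.20, mm10 chr11:5520659-5525893, plus strand) encodes the transcription factor made from the mRNA that IRE1 splices. Its reads were 64, 9, 28 and 20 with DMSO (66.5, 24.3, 103 and 55.5 CPM), 11, 13, 4 and 1 with benzamil (33.4, 43.4, 26.7 and 7.94 CPM), and 1 in each untreated library. DMSO library 2 was below 3 of the 4 benzamil libraries, so the treated groups overlapped. The log2 fold change with benzamil was -0.95 ± 0.40 SE (edgeR adjusted p = 0.0857), with an adjusted p of 0.0298 without DMSO library 2. Summed levels with DMSO were 4.36 times those of untreated skin, with a counting interval of 1.18 to 36.4 (edgeR adjusted p = 0.128).

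Atf4 (ENSMUSG00000042406.9, mm10 chr15:80255184-80257541, plus strand) encodes the transcription factor of the PERK branch and of the wider integrated stress response. It had 276, 138 and 181 reads in DMSO libraries 2 to 4, and 522, 745, 508 and 502.5 CPM in libraries 1 to 4. There were 128, 108, 85 and 116 reads with benzamil (388, 361, 567 and 921 CPM), and 26 and 16 in untreated skin (350 and 237 CPM). Benzamil libraries 1 and 2 lay below all DMSO libraries and benzamil library 4 lay above all of them. The means were 569 ± 118 CPM with DMSO and 559 ± 258 with benzamil (SD, n = 4 each), and the log2 fold change was -0.07 ± 0.24 SE (edgeR adjusted p = 0.870), with an interval from -0.54 to 0.40. Without benzamil library 4 this value was -0.39, with an adjusted p of 0.216, and it turned to 0.10 or 0.11 without DMSO library 2, benzamil library 1 or benzamil library 2. Without benzamil libraries 3 and 4 together it was -0.56, with an adjusted p of 0.125. The DMSO libraries were all above the untreated ones, at 294 ± 79.7 CPM (SD, n = 2). This difference, 0.95 ± 0.37 SE on the log2 scale, had an edgeR adjusted p of 0.0707 and passed in 6 of 20 alternatives. The adjusted p was 0.0185 without the filter, 0.0194 by limma, 0.0423 with each table on its own, 0.00718 with each table on its own and no filter, 0.0357 without benzamil library 4, and 0.031 without benzamil libraries 3 and 4.

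Atf3 (mm10 chr1:191170296-191218039, minus strand) and Ddit3 (mm10 chr10:127290774-127296288, plus strand), which encodes CHOP, are stress-induced transcription factor genes downstream of ATF4. Atf3 had 5, 3, 0 and 0 reads with DMSO, and 3 and 0 in untreated skin. Its summed DMSO level was 0.192 times the untreated one, with a counting interval of 0.0462 to 1.13. Ddit3 had 7, 1, 0 and 0 reads with DMSO and 4, 2, 0 and 4 with benzamil. The summed benzamil level was 2.71 times that of DMSO, with a counting interval of 0.964 to 7.91. In fits without the filter the adjusted p was 0.291 for Atf3 and 0.258 for Ddit3, so a change in either gene was not detectable at this depth.

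Of the 5 genes tested, 2 were called lower and 0 higher with benzamil relative to DMSO by edgeR, and DESeq2 also called 2. Over all genes tested, 12.1% were called lower and 9.91% higher in this comparison at the adjusted threshold. At an unadjusted p under 0.05, 4 of the 5 passed. The share of all genes at that looser threshold was not computed, so this count has no background beside it. The median log2 fold change of the 5 was -0.95, beside -0.01 over all genes. For 2 of the 5, Hspa5 and Herpud1, every benzamil library was below every DMSO library, which held for 13.4% of all genes. In DMSO over untreated, 1 of the 5 was called higher and 0 lower, where 9.93% of all genes were called higher and 8.45% lower. At an unadjusted p under 0.05, again without a share of all genes, 4 of the 5 passed. The observed levels did not overlap for Hspa5, Pdia4, Xbp1 and Atf4, which held in the higher direction for 29.5% of all genes. For Pdia4 and Xbp1 each untreated library had fewer than 3 reads, which at 40.4 and 44.5 CPM would lie above the lowest DMSO library, so the depth does not establish a separation for this pair. The median of the 5 was 1.17, beside 0.18 over all genes. The DMSO libraries enter both of these comparisons, so the 2 sets of values are not independent.

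**Figure D3:**
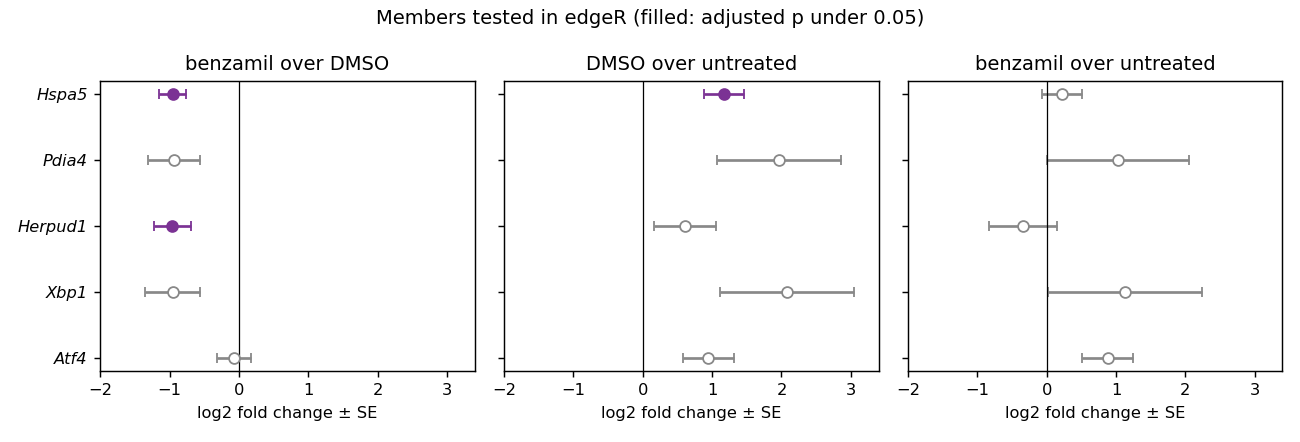
Log2 fold change ± SE (x axis, edgeR) of the 5 tested genes in 3 comparisons, with filled points for an adjusted p under 0.05. Hspa5, Pdia4, Herpud1 and Xbp1 lie between -0.96 and -0.94 in benzamil over DMSO, and Atf4 at -0.07.

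Between benzamil and untreated skin, 0 of the 5 genes were called by edgeR and 0 by DESeq2. Over all genes, 2.44% were called higher and 1.56% lower by edgeR. Of the 5, 1 gene, Atf4, had an unadjusted p under 0.05, a threshold at which the share of all genes was not computed. Hspa5 differed by 0.22 ± 0.30 SE on the log2 scale (adjusted p = 0.727), with a 95% interval from -0.36 to 0.80. Herpud1 was at -0.35 ± 0.49 SE (adjusted p = 0.738), with an interval from -1.31 to 0.61, and Atf4 at 0.88 ± 0.37 SE (adjusted p = 0.189). Pdia4 and Xbp1, with 2 untreated reads each, had summed benzamil levels 2.04 times (counting interval 0.510 to 17.7) and 2.27 times (0.574 to 19.6) the untreated ones. These values do not show that benzamil-treated and untreated skin were alike.

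The authors' deposited table for benzamil and DMSO gives a log2 fold change of -0.92 for Hspa5 (adjusted p = 0.000131), -0.85 for Herpud1 (0.0309), -0.77 for Xbp1 (0.161), -0.69 for Pdia4 (0.194) and -0.07 for Atf4 (0.904). For untreated over DMSO the authors' deposited table gives -1.22 for Hspa5 (adjusted p = 0.00613) and -0.998 for Atf4 (adjusted p = 0.0343). Atf4 passed the threshold there, as it did in 6 alternatives to the filtered fit of all 10 libraries.

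The chaperone and degradation genes were also set against Atf4 within each library, a comparison chosen after their values were seen. The log2 ratio of Hspa5 to Atf4 CPM was 0.48 ± 0.55 with DMSO and -0.33 ± 0.56 with benzamil (SD, n = 4 each), a difference of -0.81 (exact permutation test, two-sided p = 0.0857, adjusted 0.267 over 6 tests). For Herpud1 to Atf4 the ratio was -2.18 ± 0.45 and -3.04 ± 0.80 (SD, n = 4 each), a difference of -0.86 (exact permutation test, two-sided p = 0.114, adjusted 0.267). The smallest p that 4 against 4 libraries allow is 0.0286, and 0.0857 after adjustment over the 6 tests, so these tests could not pass the threshold and leave a difference between Atf4 and the other genes undecided. Benzamil library 4 had the highest Atf4 level of its group. It also had the highest Pdia4 and Ddit3 and the lowest Xbp1 levels, but from 6, 4 and 1 reads. In that library 3 reads are 23.8 CPM, so these 3 ranks are not established. Its level of S100a8, a gene of inflamed keratinocytes and neutrophils that is in none of the lists, was 2486 CPM. The other benzamil libraries had 100.1 to 904 CPM of S100a8 and the DMSO libraries 5794 to 9171. Whether the S100a8 and Atf4 levels of benzamil library 4 are linked was not tested.

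Other genes of the ER and of the stress response were described by 7 lists without the 8 genes. Of 141 genes listed, 127 are in both tables and 91 were tested. In benzamil over DMSO, 26 were called lower and 1 higher by edgeR, with a median log2 fold change of -0.46, where 12.1% of all genes tested were called lower and 9.91% higher and their median was -0.01. The lower count was 14 without DMSO library 1 and 14 without benzamil library 1. In DMSO over untreated, 18 were called higher and 2 lower, where 9.93% of all genes were called higher and 8.45% lower. The median was 0.81, or 0.77 with 10 genes at 0 reads in a group set to their bound, beside 0.18 over all genes. Without untreated library 1, 7 were called higher and 2 lower. Between benzamil and untreated skin 0 of the 91 were called by edgeR and 0 by DESeq2, and the median was 0.47. At an unadjusted p under 0.05, 17 of the 91 passed, a count without a share of all genes beside it. As given above, keratinocyte marker sums were higher with benzamil than with DMSO, although 3 of the 9 markers were called higher. Neutrophil marker sums were lower. The part of either cell type in these counts was not tested.

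Among the sensors, Atf6, the membrane-bound transcription factor, and Mbtps1, the protease that cuts it, were tested and not called in any comparison. In benzamil over DMSO they were at 0.41 and 0.49 on the log2 scale (edgeR adjusted p = 0.502 and 0.329), with 0 of the 2 at an unadjusted p under 0.05 and 0 called by DESeq2.

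Of 10 ER chaperones and cochaperones, 4 fell and 0 rose with benzamil, with a median of -0.57. Dnajb9, a BiP cochaperone and target of XBP1, had 59 reads over the DMSO libraries and 2 over the benzamil libraries, 13.6-fold lower with a counting interval of 3.60 to 115. Ppib, an ER prolyl isomerase, fell by 1.60 ± 0.38 SE on the log2 scale (adjusted p = 0.00419). Manf, an ER stress-induced secreted protein, fell by 1.47 ± 0.36 SE (adjusted p = 0.0053). Dnajb11, a further BiP cochaperone that was named after its value was seen, fell by 1.48 ± 0.43 SE (adjusted p = 0.0151). The chaperones Hsp90b1 (-0.15 ± 0.18), Calr (0.06 ± 0.21) and Canx (-0.04 ± 0.18), named after their values were seen, had adjusted p-values of 0.605, 0.862 and 0.915. In DMSO over untreated 2 of the 10 rose, Manf, at least 3.58-fold higher, and Ppib, at least 2.98-fold higher, both against 0 untreated reads with the floor of 3 reads taken over the group, as in the values of this kind below. The lower ends of their two-sided 95% counting intervals are 2.88 and 2.39. Without untreated library 1 both calls were lost.

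ER oxidoreductases, enzymes of disulfide chemistry and related proteins in the ER, showed 3 of 5 lower and 0 higher with benzamil, with a median of -0.95. P4hb, a protein disulfide isomerase, fell by 1.13 ± 0.22 SE (adjusted p = 0.000647), from 373 ± 26.5 to 162 ± 61.3 CPM (SD, n = 4 each). Pdia6 fell by 0.95 ± 0.23 SE (adjusted p = 0.0041) and Selenof changed by -1.46 ± 0.34 SE (adjusted p = 0.00334). With DMSO 4 of the 5 were higher than in untreated skin. P4hb was 2.27 ± 0.41 SE higher on the log2 scale (adjusted p = 0.000469) and Pdia6 2.36 ± 0.50 SE (adjusted p = 0.00189), from 77.5 ± 4.67 and 35.0 ± 7.58 CPM in untreated skin (SD, n = 2 each). Selenof was at least 3.63-fold higher against the floor, with a counting interval from 2.92.

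Of 17 genes of ER-associated degradation, 1 fell and 0 rose with benzamil, with a median of -0.12. That gene was Edem1, which targets misfolded glycoproteins, at -1.50 ± 0.50 SE (adjusted p = 0.0322), a call lost without benzamil library 4. Relative to untreated skin, 1 rose and 1 fell with DMSO. Derl2, a channel component, was at least 1.61-fold higher against the floor, with a counting interval from 1.27, a call lost in 7 of 15 alternatives, and Sel1l, the partner of the HRD1 ligase, fell by 1.26 ± 0.36 SE (adjusted p = 0.0163), a call lost in 4 of 20 alternatives, without untreated library 2 among them, with values from -1.64 to -0.49.

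Among 18 genes of the integrated stress response and targets of ATF4, 5 fell and 0 rose with benzamil, with a median of -0.40. Slc7a11, the cystine transporter, fell by 2.86 ± 0.27 SE (adjusted p = 3.82e-07), from 232 ± 29.9 to 30.4 ± 7.18 CPM (SD, n = 4 each). Eif2s1, which encodes eIF2alpha, fell by 1.36 ± 0.30 SE (adjusted p = 0.00229) and Cebpb, a transcription factor, changed by -0.96 ± 0.24 SE (adjusted p = 0.0054). With DMSO 3 were higher than in untreated skin. Slc7a11 was at least 11.4-fold higher against the floor, with a counting interval from 9.21, Cebpb was 2.65 ± 0.54 SE higher on the log2 scale (adjusted p = 0.00134), and Slc7a1, a cationic amino acid transporter, was 11.7-fold higher by summed level with a counting interval of 2.07 to 464, a call lost without untreated library 1.

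Of 25 genes of translocation into the ER and of signal peptide processing, 8 fell and 0 rose with benzamil, with a median of -0.51. Ostc, a subunit of oligosaccharyltransferase, fell by 1.66 ± 0.31 SE (adjusted p = 0.00048), Ssr3, of the translocon-associated complex, changed by -1.41 ± 0.25 SE (adjusted p = 0.000307), and Spcs1, of the signal peptidase, by -1.34 ± 0.33 SE (adjusted p = 0.00476). Against untreated skin, 6 rose with DMSO. Ssr3 was 2.20 ± 0.50 SE higher (adjusted p = 0.00344) and Ssr1 1.11 ± 0.33 SE (adjusted p = 0.0198), both lost without untreated library 1, and Spcs1 was at least 5.34-fold higher against the floor, with a counting interval from 4.30.

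Of 14 genes of transport from the ER to the Golgi, 5 fell and 1 rose with benzamil, with a median of -0.55. Surf4, a cargo receptor, was at -0.78 ± 0.25 SE (adjusted p = 0.0262) and Sec24d, of the COPII coat, at -1.17 ± 0.39 SE (adjusted p = 0.0304), and each call was lost on leaving out any of several single libraries, benzamil libraries 2 and 4 and DMSO library 2 among them for both. Golgb1, a Golgi tether, was 0.78 ± 0.23 SE higher with benzamil (adjusted p = 0.0174), a call lost without DMSO library 1, without benzamil library 1 or 3, and under scaling by total counts. Relative to untreated skin, Golgb1 with DMSO fell by 1.43 ± 0.33 SE (adjusted p = 0.00338), a call lost without untreated library 1. Sar1b, the GTPase of the coat, was 12.0-fold higher by summed level with a counting interval of 2.13 to 479, and Sec23b 8.58-fold with an interval of 1.51 to 342. The Sar1b call was lost without either untreated library, and that of Sec23b also without DMSO library 1, 2 or 3 or benzamil library 3.

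**Figure D4:**
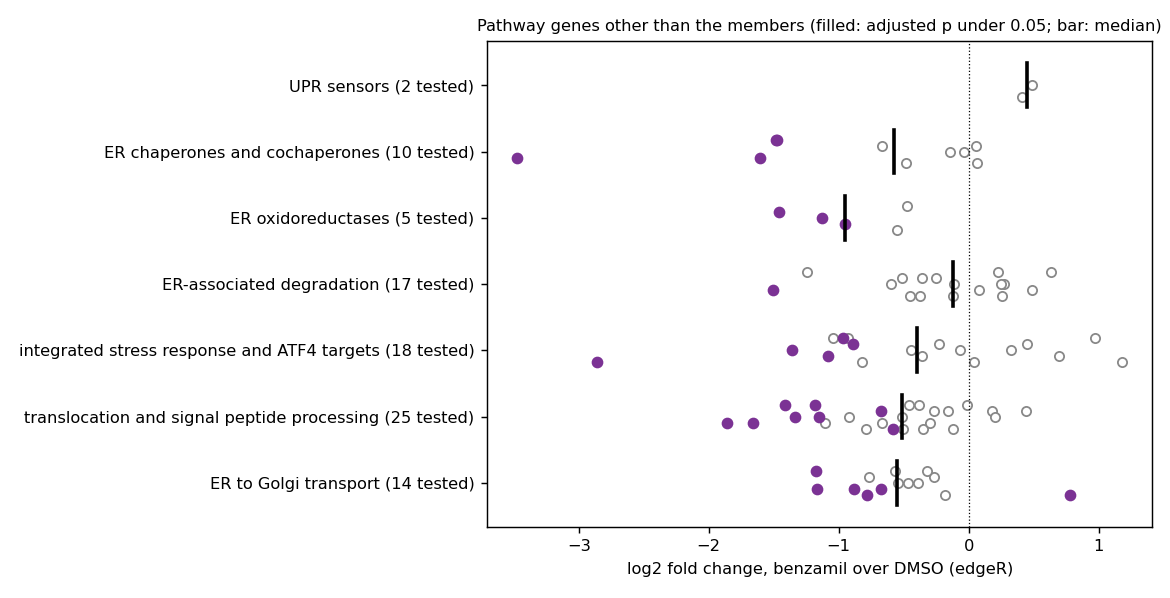
Log2 fold change in benzamil over DMSO (x axis, edgeR) of the tested genes of 7 lists that exclude the 8 genes; filled points passed an adjusted p under 0.05 and the bar is the list's median. The median is below 0 in all lists except the sensors, and 1 filled point, Golgb1, lies above 0.

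A form of the ER stress element was present in the promoter windows of 49 genes, of which 15 were tested. With benzamil 4 of the 15 fell (Hspa5, Herpud1, Pdia6 and Dnajb11) and 0 rose, with a median of -0.44 beside -0.01 over all genes, of which 12.1% were called lower. Hspa5 and Herpud1 are among the genes of this report, and Pdia6 and Dnajb11 are in the lists above. These 4 calls therefore repeat results already given and are not a separate result. The other 11, Hsp90b1, Calr and Canx among them, did not pass. Relative to untreated skin, 4 rose with DMSO (Hspa5, Pdia6, Lgalsl and Hnrnpa3) and 1, Rbm39, fell, with a median of 0.65 beside 0.18 over all genes, of which 9.93% were called higher. In benzamil over untreated 1 of the 15, Lgalsl, was called higher (adjusted p = 0.00119) and 0 lower.

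The genes most alike in pattern were taken by Pearson correlation of log2 CPM with each tested gene over the 10 libraries, which share depth and group. For Hspa5 these were Hes1 (r = 0.947), Lce3a (0.941) and Eif4g2 (0.941). For Herpud1 they were H3f3b (r = 0.935), Plet1 (0.926) and Dusp6 (0.924), for Xbp1 Gnb2 (0.940), Map2k3 (0.903) and Ttc39b (0.890), and for Atf4 Tuba1c (0.951), Atp6v0a2 (0.947) and Srsf2 (0.930). For Pdia4 they were Las1l, 4930453N24Rik and Hnrnpa3, at r = 0.968 to 0.969. None of these 15 is among the 8 genes or in the 7 lists.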

How the data were processed

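RNA (500 ng per library) was measured with a 3' mRNA kit with molecular identifiers, per the labels, and STAR, featureCounts and DESeq2 with mm10 are named in the submitters' processing notes. The version of each tool was not given in the sources used. Collapsing of duplicate identifiers is not stated, so intervals cover counting error only. The authors deposited 2 tables of variance-stabilised log2 values (10653 and 9820 genes), normalized separately. DESeq2 tables were deposited too, with a mean signal, a log2 fold change, a Wald score and p-values. A deposited count table carries 61533 human identifiers and 0 mouse ones. It was used in no test, and some of its levels are only described at the end.

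The transform of the log2 values was inverted, and 100% of values came out as whole reads within 0.001 reads. The 39116 DMSO values shared by both tables were equal, and 9779 genes were joined. The intended test was for counts, so edgeR 4.0.16 (R 4.3.3) was run on the recovered reads and limma 3.58.1 on the log2 values as an alternative. All 10 libraries entered 1 quasi-likelihood fit with a mean per group and TMM scaling. filterByExpr kept 5245 genes (minimum count 10, minimum total 15), with a common biological coefficient of variation of 0.195. Calls required an adjusted p (Benjamini-Hochberg) under 0.05. SE is the log2 fold change divided by the root of the F statistic. The inversion and the fit were tested on simulated data. Alternatives were DESeq2 1.42.0, other scalings and filters, each table fitted alone, the replicate block and leaving out libraries. Counting intervals are 95% exact and pool the libraries of a group.

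The 8 genes, the lists and the tests were chosen with earlier results of these data known. Named list genes are the 3 with the smallest p among those called, per list and comparison, except Dnajb11, Hsp90b1, Calr, Canx and the 2 sensors, which were named after their values were seen, and named alike genes the 3 with the highest correlation. S100a8 is in none of the lists and was picked singly. Coordinates are GENCODE M21 on mm10, and promoters RefSeq on GRCm38.p6.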

Additional observations from a re-analysis of the deposited data

Results flagged for a closer look

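In 3 groups of 4 libraries, 1 library's gap to its nearest neighbour, divided by the group's range, exceeded the 95% critical value of Dixon's test. By chance about 1 such group in 20 does when values vary continuously, which the 2, 2, 1 and 0 benzamil reads of Sdf2l1 do not. The number of groups screened is not given, so the 3 cannot be set against that rate. Sdf2l1 had 0 CPM in benzamil library 4, where the nearest of the others was 6.07 CPM (ratio 0.908), and the 3 reads that a count of 0 allows would be 23.8 CPM there. Herpud1 was highest in benzamil library 1, at 84.9 CPM, where the nearest of the others was 60.0 CPM (ratio 0.848). Atf4 was highest in DMSO library 2, at 745 CPM, where the nearest of the others was 522 CPM (ratio 0.921), and without this library the Atf4 difference between benzamil and DMSO turned to 0.10 on the log2 scale.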

How the results depend on the processing

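Of 285 log2 fold changes of the 5 tested genes under alternatives, 268 kept their direction and side of the threshold, 11 newly passed it, 3 no longer passed and 3 reversed. The cause of these changes was not tested. The reversals were all of Atf4 in benzamil over DMSO, at 0.10 without DMSO library 2, 0.10 without benzamil library 1 and 0.11 without benzamil library 2, within a range of -0.39 to 0.11 on leaving out a library. Pdia4 in benzamil over DMSO passed under scaling by total counts (-1.19, adjusted p = 0.0219), without DMSO library 3 (0.0422) and without untreated library 2 (0.0471), and Xbp1 under total counts (-1.21, adjusted p = 0.0315) and without DMSO library 2 (0.0298). Atf4 in DMSO over untreated made up the other 6 newly passing values, at 0.90 to 1.20.

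In benzamil over DMSO the number of the 5 genes called was 2, with 4 under total counts, 1 to 3 on leaving out a library and 1 without benzamil libraries 3 and 4, an alternative chosen after seeing the data. In DMSO over untreated it was 1, with 2 without the filter, 3 by limma, 2 with each table on its own, 2 with each table on its own and no filter (also chosen after seeing the data), 2 without benzamil libraries 3 and 4 and 0 to 2 on leaving out a library. Limma's 3 calls were Hspa5, Atf4 and Sdf2l1. In benzamil over untreated it was 0, and 0 to 0 on leaving out a library.

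List genes called were 27 in benzamil over DMSO (14 to 33 on leaving out a library, 14 without benzamil libraries 3 and 4), 20 in DMSO over untreated (13 by DESeq2, 50 by limma, 9 to 22 on leaving out a library) and 0 in benzamil over untreated (0 to 2, and 1 without benzamil libraries 3 and 4). Over all genes they were 1155 (647 to 1413, and 584), 964 (2910 by limma, 433 to 979) and 210 (99 to 233, and 137). Scaling by total counts moved the median of all genes by -0.26 in benzamil over DMSO, where 248 genes were then higher and 1009 lower in place of 520 and 635, and by -0.17 in benzamil over untreated, with 63 and 105 in place of 128 and 82.

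Same-numbered libraries correlated in their deviations from the group mean at -0.108 to 0.105. Only DMSO library 3, among the benzamil libraries, and benzamil library 2, among the untreated ones, correlated best with their own number. These deviations include counting error, so a pairing by number is neither shown nor excluded. With the replicate block 2, 1 and 0 of the 5 genes, 24, 18 and 0 list genes, and 1059, 963 and 147 of all genes were called in the 3 comparisons. Without 1 untreated library the lone other one is assumed to vary like the other groups. Limma and single tables could not be run for benzamil over untreated, since the tables were normalized separately.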

Other observations

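The deposited count table with human identifiers holds 8752 to 136930 counts per library. HSPA5 there had 827 to 1548 CPM in the DMSO libraries, 355 to 705 in the benzamil libraries, and 385 and 1028 in the untreated ones, from 347, 64 and 13 reads. XBP1 had 79.0 to 278, 48.9 to 177, and 96.2 and 0 CPM in the same order, from 48, 15 and 1 reads. HERPUD1 had 84.8 to 197, 76.0 to 192, and 0 and 114 CPM, from 41, 14 and 1 reads. The HERPUD1 means with DMSO and with benzamil were 140 ± 51.5 and 132 ± 49.3 CPM (SD, n = 4 each). These means rest on 41 and 14 reads under human identifiers, and their difference was not tested. ATF4 had 1, 1 and 2 reads.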
